A study of Mus musculus with 73 samples.

Results

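Mammary tumors of MMTV-her2/neu mice were compared with normal mammary gland on 5 arrays, of 38 arrays that hybridised a tumor directly against normal gland and of 73 arrays in the whole series. The 5 arrays were chosen by the model named in their labels, without use of any measured value. On each of these 2-colour cDNA arrays, which carry spotted complementary DNAs, tumor RNA was labelled with the dye Cy5 and normal gland RNA with Cy3. The tumors came from FVB mice carrying the MMTV-her2/neu transgene and the normal glands from wild-type FVB mice. In this transgene the promoter of the mouse mammary tumor virus, active mainly in mammary epithelium, drives the receptor gene. The labels used here give no age, parity or form of the receptor gene, and they do not say whether the 5 tumors came from separate animals or whether the normal RNA was pooled or shared. P-values therefore measure only the spread between arrays of a model, pooled over all direct arrays by the fit, and that spread may be technical. The 4 other FVB models on direct arrays were MMTV-PyMT (n = 5), MMTV-ras (n = 5), C3(1)/SV40 T/t-antigen (n = 5, here C3(1) Tag) and MMTV-myc (n = 4), each against wild-type FVB gland. The fit also used tumors of the models p53-/- transplant (n = 5) and p53fp/fp WAP-cre (n = 4). It further used Brca1 Co/Co MMTV-cre p53 tumors (n = 5), so the spread behind the p-values includes these models.

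HER2, called neu in rodents and encoded by Erbb2, is a receptor tyrosine kinase of the epidermal growth factor receptor family. It has no ligand of its own, pairs with other family members and signals through the RAS and MAP kinase cascade and through PI3 kinase and AKT. Among the targets of these cascades are cyclin D1 and the phosphatases and Sprouty-related proteins that damp MAP kinase signalling. Tumors driven by neu in the mammary gland are known as largely luminal, that is, of the secretory epithelial lineage. Normal gland of a virgin mouse consists mostly of fat tissue with a thin ductal tree, and dissected glands can carry skeletal muscle of the body wall.

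Values are log2 ratios of tumor over normal, so 1 means a 2-fold higher level in the tumor, and each array was centred on its median. A gene passed where its p-value from limma, adjusted by the Benjamini-Hochberg method, was under 0.05 in a fit of all 38 direct arrays. Its error is the standard error of that fit. The 5 arrays gave ratios for 7444 to 7886 features each, and 5768 genes were tested. The deposited values gave ratios without the 2 dye signals, so the brightness behind a ratio is unknown. Correlations between the 5 arrays over genes lay between 0.74 and 0.88. Genes are no replicates of one another, so these describe the arrays. The lowest pair within each other model lay between 0.31 and 0.70. No feature with Erbb2 or Erbb3 as its symbol was measured here, so the transgene itself could not be checked against the labels. Of the luminal epithelial markers 5 of 5 measured rose, and their median was 1.85, while 4 of 4 adipocyte markers and 6 of 7 skeletal muscle markers fell. Over all genes tested 15.0% rose and 10.8% fell.

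The tumors differed from normal gland in 1490 of 5768 genes (25.8%), of which 866 were higher (15.0% of those tested) and 624 lower (10.8%). Of these, 342 changed at least 2-fold (5.93%), 215 upward (3.73%) and 127 downward (2.20%). Secretory and epithelial genes led the rises, and fat and muscle genes led the falls. Without centring 1012 genes passed (17.5%), of which 541 were higher (9.38%) and 471 lower (8.17%), and 1006 were shared with the centred values in the same direction. Under quantile normalization 2212 passed (38.3%), of which 1495 were higher (25.9%) and 717 lower (12.4%), and 1477 were shared. Every value lay on 1 side of 0 in 1422 of the 1490 genes, against 2924 of all 5768 tested. Of 304 genes that changed at least 2-fold and had 5 values, 302 had all arrays on 1 side of 0. Both sets were picked on these same values, so the agreement in sign describes the calls and does not test them.

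The 12 largest rises ran from Aqp5 at 5.03 to Dusp6 at 2.84. Aqp5, a water channel of secretory epithelia, was at 5.26, 5.28, 5.16, 4.28 and 5.19 on arrays 1 to 5, a mean of 5.03 ± 0.48 or 32.7-fold (adjusted p = 7.87e-10). Array 4 lay below the other four. Col9a1, a collagen chain known from cartilage, stood at 4.89, 4.53, 4.14, 4.47 and 5.00, a mean of 4.61 ± 0.41 (adjusted p = 1.52e-10). Lcn2, lipocalin 2, an iron carrier-binding secreted protein, was at 5.32, 4.37, 3.66 and 4.48 on arrays 1, 2, 4 and 5, with no value on array 3. Its mean was 4.46 ± 0.75 (adjusted p = 4.59e-05). Wfdc18, a secreted whey acidic protein family member, rose by 4.15 ± 0.58 with values from 3.41 to 4.59. In these genes every measured array lay far above 0. The calcium-activated ion channels Ano1, which passes chloride, and Kcnn4, which passes potassium, rose by 3.10 ± 0.36 and 3.08 ± 0.29. Kcnn4 stood at 1.42 on array 4 and between 3.12 and 3.82 on the others. The remaining genes among the 12 largest rises were Garem1 (3.21 ± 0.27), a GRB2-associated regulator of MAP kinase signalling, Epcam (2.99 ± 0.58), an epithelial adhesion molecule, Tcn2 (2.92 ± 0.28), a vitamin B12 carrier, Ly6e (2.90 ± 0.31), a membrane-anchored protein, Lbp (2.86 ± 0.52), which binds bacterial lipopolysaccharide, and Dusp6 (2.84 ± 0.22), a phosphatase of ERK.

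**Figure D1:**
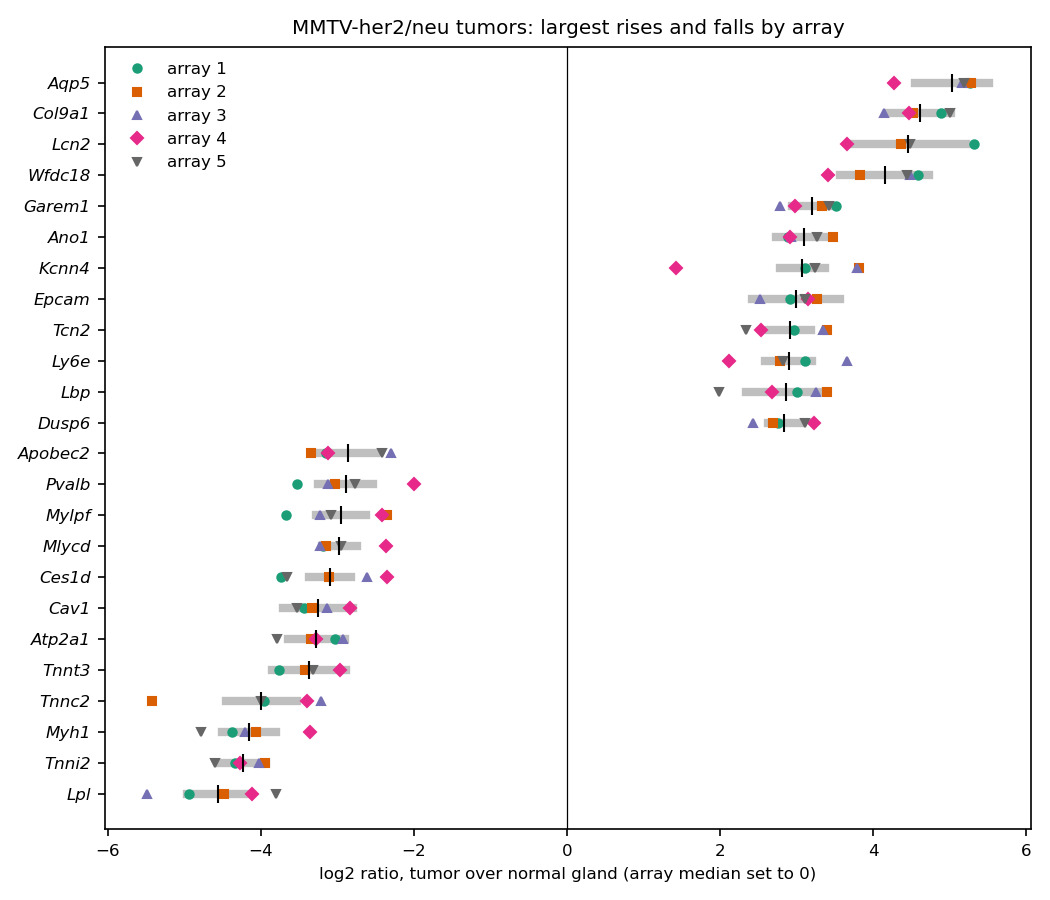
Log2 ratio of tumor over normal gland (horizontal axis, each array centred on its median) of the 12 largest rises and 12 largest falls among genes that passed with at least 4 values on 1 side of 0. Symbols are the 5 arrays, ticks are means and grey bars are the mean ± 1 standard error of the limma fit. Every symbol of a rise lies right of 0 and every symbol of a fall left of it, with Aqp5 at 5.03 and Lpl at -4.56 as the extremes.

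Of the list of ErbB receptors and ligands, which also holds the receptor-binding adaptor Grb7 (0.37), 5 genes were measured and 0 passed in either direction, against 25.8% of all genes tested. Their values ran from -0.03 for the ligand Hbegf to 0.55 for the ligand Tgfa, with Egfr, the first receptor of the family, at 0.13 ± 0.15 (adjusted p = 0.552). Egfr had values of 0.07, 0.18, 0.35 and -0.08 on arrays 1, 2, 3 and 5. In limma 1 of the 5 had an unadjusted p under 0.05, as had 2179 of all genes, and under quantile normalization 3 of the 5 rose. The relay downstream of the receptor, RAS, MAP kinase and PI3 kinase genes, held 15 measured genes, of which 4 rose and 1 fell, with a median of 0.02. Thus 33.3% of the relay passed, beside 25.8% of all genes tested. Akt1, the serine kinase downstream of PI3 kinase, stood at 1.20, 1.41, 1.65, 0.83 and 1.18, a mean of 1.25 ± 0.18 (adjusted p = 5.83e-06). Pik3r1, the regulatory subunit of PI3 kinase, was at 0.56, the tyrosine kinase Src at 0.52 and the RAF kinase Araf at 0.40, while the catalytic subunit Pik3ca was at -0.40. As deposited 2 genes rose and 0 fell, and without array 1, 3 or 4 the list also had 2 rises. The fall of Pik3ca did not pass without array 5.

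Of 11 feedback inhibitors of MAP kinase signalling 4 rose and 1 fell, beside 25.8% of all genes that changed, and their median was 0 to 2 decimals. Dusp6 was at 2.75, 2.70, 2.43, 3.22 and 3.12, and its adjusted p was 1.48e-11. Dusp7, a related ERK phosphatase, was at 1.34, 2.04, 2.17, 0.96 and 1.46, a mean of 1.59 ± 0.20. Pea15a, a small protein that holds ERK in the cytoplasm, rose by 1.57 ± 0.32 and Spred1, a Sprouty-related inhibitor, by 1.10, whereas the RAS GTPase-activating protein Rasa3 fell by 0.90. Every array was above 0 for Dusp6, Dusp7 and Pea15a. The count of rises stayed at 4 as deposited and when any 1 of the 5 arrays was left out. The phosphatase genes Dusp2 (-0.12) and Dusp4 (-0.07) were among the members that did not pass. The list median was 0.57 in C3(1) Tag, 0.24 in PyMT, 0.22 in myc and 0.20 in ras tumors. Dusp6 had model means of 3.27 in myc, 2.79 in ras, 1.10 in PyMT and 0.93 in C3(1) Tag. In limma 0 of the 11 members differed between her2/neu and the mean of these models, beside 0.659% of all genes tested. Dusp6 did differ under quantile normalization (a difference of 0.85, adjusted p = 0.0354).

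Among G1 cyclins, CDKs and inhibitors 4 of 12 rose and 0 fell, with a median of 0.12. In this list 33.3% passed, beside 25.8% of all genes tested. Ccnd1, cyclin D1, which activates CDK4 and CDK6, stood at 1.50, 1.86, 3.07, 1.28 and 1.59, a mean of 1.86 ± 0.28 or 3.62-fold (adjusted p = 1.17e-05). Array 3 was the highest and all 5 lay above 0. Its partner kinase Cdk4 was at 1.80, 2.69 and 2.03 on arrays 1, 3 and 4, the arrays with a value, a mean of 2.17 ± 0.44. Myc, a transcription factor, rose by 0.58 ± 0.16 and the CDK inhibitor Cdkn1c by 0.66. Other members did not pass, among them Ccnd2 at -0.39, Cdk6 at -0.13 and the retinoblastoma gene Rb1 at 0.03. The mean of Ccnd1 was 1.94 in myc, 1.32 in ras, 0.83 in PyMT and -0.48 in C3(1) Tag tumors, and her2/neu against the mean of these 4 did not pass (adjusted p = 0.244), although it did under quantile normalization (a difference of 1.03, adjusted p = 0.0367).

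Of 31 mitosis genes 5 rose and 0 fell, with a median of 0.22, and of 25 DNA replication genes 3 rose and 1 fell, with a median of 0.15. These rises were near the 15.0% of all genes tested that rose. The rises were Cks2, a CDK-binding subunit, at 1.07 ± 0.24, Cdk1 at 0.79, the S and G2 phase cyclin Ccna2 at 0.68 ± 0.18, Hmmr at 0.59 ± 0.16 and the checkpoint gene Bub3 at 0.58. For replication they were the clamp loader subunit Rfc5 at 1.05 ± 0.20, Gins1 of the replicative helicase complex at 0.78 ± 0.17 and the flap endonuclease Fen1 at 0.50 ± 0.18, and the histone mRNA-binding gene Slbp fell by 0.37. Fen1 and Slbp did not pass as deposited, nor Fen1 without array 1, 2, 3 or 4, and the list had 0 falls without any 1 array. Mki67, which encodes the proliferation antigen Ki-67, was at -0.44, -0.20, -0.73, 0.29 and -0.59, a mean of -0.33 ± 0.15 (adjusted p = 0.0977), and passed as lower at -0.49 without array 4. Top2a, topoisomerase II alpha, stood at 0.26 ± 0.39 (adjusted p = 0.654). The median of the mitosis list was 0.86 in C3(1) Tag tumors and between 0.17 and 0.41 in the 3 other FVB models. The share that rose depended on scaling: under quantile normalization 9 mitosis and 8 replication genes did.

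Genes of luminal epithelium rose, beside 15.0% of all genes tested that rose and 10.8% that fell. Of 15 luminal keratin and epithelial junction genes 9 rose and 0 fell, with a median of 0.85, and of 11 luminal lineage regulators 6 rose and 0 fell, with a median of 0.80. Spint2, a membrane inhibitor of serine proteases, was at 2.18, 1.95, 2.25, 2.30 and 2.10, a mean of 2.15 ± 0.29 (adjusted p = 8.59e-07). Krt8, a luminal keratin, was at 1.61, 1.39, 1.81, 1.38 and 1.27, a mean of 1.49 ± 0.45 (adjusted p = 0.0141). The 5 arrays differed little in either gene. Cldn7, a tight junction claudin, was at 1.85, plakoglobin Jup, a junction protein, at 1.38 ± 0.23, E-cadherin Cdh1 at 0.87 and beta-catenin Ctnnb1 at 0.85. Among regulators, Gata3, the transcription factor that maintains luminal cells, was at 1.95, 2.18, 1.97, 1.87 and 2.13, a mean of 2.02 ± 0.23 or 4.05-fold (adjusted p = 9.54e-08). Stat5a, the transcription factor downstream of the prolactin receptor, was at 0.68, 0.93, 1.47, 0.63 and 0.61, a mean of 0.86 ± 0.15 (adjusted p = 6.75e-05). Id2 rose by 1.52 ± 0.29 and the ETS factor Ehf by 1.00, while Foxa1 (0.08) and Sox9 (0.12) did not pass. As deposited 6 junction and 5 regulator genes rose, and without array 1, 5 junction genes did.

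Milk and secretory genes rose in 9 of 16 cases and fell in 2, with a median of 0.87. Of all genes tested 15.0% rose and 10.8% fell. The rises beside Aqp5, Lcn2 and Wfdc18 were the alpha casein Csn1s1, the milk fat globule proteins Mfge8 (1.62), Btn1a1 (1.22) and Xdh (0.93), Ceacam1 (1.05) and the lipid droplet protein Plin2 (0.80 ± 0.21). Lipoprotein lipase Lpl, which fat cells also make, and the mucin-like milk protein Glycam1 (-1.90) fell. The count of rises was 9 also as deposited, under quantile normalization and without any 1 array. The 2 main casein genes on the array parted. Csn1s1 was at 2.22, 2.52, 3.46, 1.88 and 2.40, a mean of 2.50 ± 0.49 or 5.64-fold (adjusted p = 2.87e-04). Csn2, the beta casein, was at -0.98, -1.36, 0.54, -2.25 and -2.13, a mean of -1.24 ± 0.55 that did not pass (adjusted p = 0.0898). Csn1s1 was above 0 on every array, whereas Csn2 was below 0 on 4 of 5 and passed as lower without array 3, at -1.68, and under quantile normalization, at -1.52. Csn1s2a, another alpha casein, was at 0.18 and did not pass.

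The 250 bases upstream of the annotated starts of these 2 casein genes are shown because the genes lie near each other on chromosome 5 and stood on opposite sides of 0 in the mean. They were read from RefSeq on GRCm38.p6, at chr5:87665958-87666207 on the plus strand for Csn1s1 and chr5:87699426-87699675 on the minus strand for Csn2. Capitals mark the letters TTCNNNGAA, the palindromic core to which STAT5 is known to bind, so both strands read the same.
Csn1s1: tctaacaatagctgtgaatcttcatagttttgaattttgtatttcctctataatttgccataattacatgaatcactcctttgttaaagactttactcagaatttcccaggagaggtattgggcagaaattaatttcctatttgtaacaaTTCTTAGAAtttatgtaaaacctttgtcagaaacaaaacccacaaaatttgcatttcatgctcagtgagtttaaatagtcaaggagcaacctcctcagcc
Csn2: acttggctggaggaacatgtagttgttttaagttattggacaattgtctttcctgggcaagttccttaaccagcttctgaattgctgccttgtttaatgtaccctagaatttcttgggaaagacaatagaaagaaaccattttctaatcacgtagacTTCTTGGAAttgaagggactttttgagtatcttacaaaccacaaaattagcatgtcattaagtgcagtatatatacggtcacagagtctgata
The match lay 100 to 92 bases before the start in Csn1s1 and 93 to 85 bases before it in Csn2. Of the 16 milk genes measured, 13 had such a window and 3 of these held the letters, Glycam1 being the third. Of all 32851 windows of this length, 2306 held them (7.02%). Genes with a match thus included 1 that rose, 1 that fell and 1 that did not pass.

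Basal and myoepithelial genes moved both ways, with 3 of 19 higher, 4 lower and a median of -0.04. In this list 36.8% passed, beside 25.8% of all genes tested, of which 15.0% were higher and 10.8% lower. The contractile actin Acta2 (1.41), the serpin Serpinb5 (1.35) and the integrin Itga6 (0.84) rose. Caveolin Cav1, which basal and fat cells share, was at -3.43, -3.33, -3.13, -2.83 and -3.53, a mean of -3.25 ± 0.46 (adjusted p = 2.82e-06), and Sparc (-1.04 ± 0.29), Tagln and Jag1 (-0.63 ± 0.16) fell. The defining markers Krt5 (-0.73), Trp63 (-0.54) and Krt17 (-0.09) did not pass. As deposited, and without array 1, 3 or 4, the list had 1 rise.

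**Figure D2:**
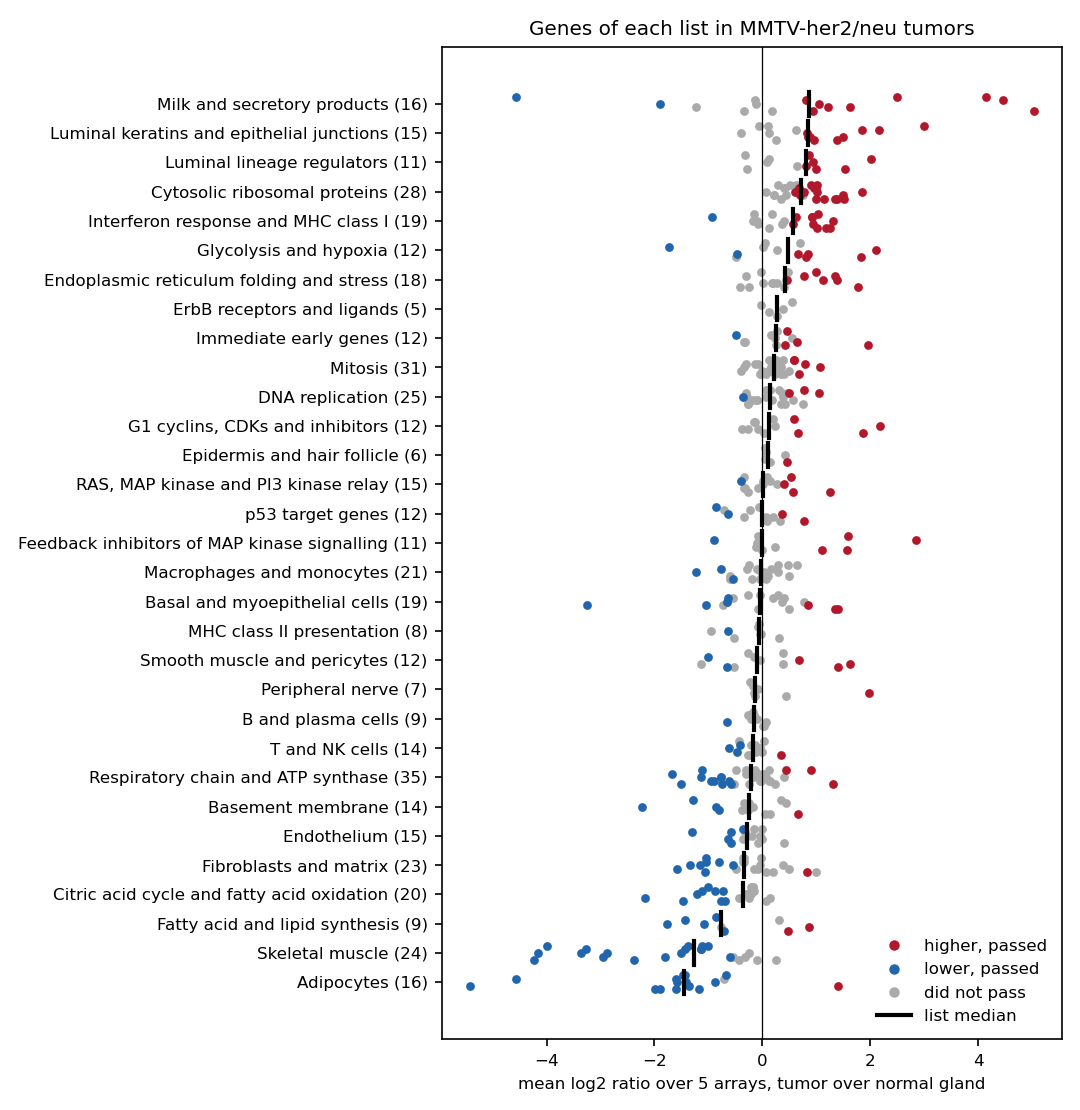
Mean log2 ratio of tumor over normal gland (horizontal axis) of each measured gene in 31 lists, ordered by median, with the number of genes measured in parentheses. Red points are genes that rose, blue points genes that fell and grey points genes that did not pass, and black bars are medians. Milk genes lie at the top with a median of 0.87 and adipocyte genes at the bottom with -1.45. Neighbouring points are offset vertically only to separate them.

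Ribosomal protein genes rose in 17 of 28 cases and fell in 0, with a median of 0.72, and all 28 means lay between 0.07 and 1.84. Of all genes tested 15.0% rose and 10.8% fell. Rps14, of the small ribosomal subunit, was at 1.95, 2.11, 2.14, 1.13 and 1.86, a mean of 1.84 ± 0.23 (adjusted p = 2.82e-07). Array 4 was the lowest. The features named Rpl10a-ps2 (1.34 ± 0.24) and Rps19-ps3 (1.14 ± 0.21) carry pseudogene symbols, and signal of the parent genes on them cannot be told apart. The list median was 0.57 in myc, 0.50 in ras, 0.23 in PyMT and -0.28 in C3(1) Tag tumors. As deposited 15 rose, under quantile normalization 23 and without array 2, 11.

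Folding and stress genes of the endoplasmic reticulum, where secreted proteins are made, rose in 7 of 18 cases and fell in 0, with a median of 0.42. In this list 38.9% passed, beside 25.8% of all genes tested. The disulfide isomerase P4hb was at 1.86, 2.09, 1.44, 1.81 and 1.67, a mean of 1.77 ± 0.33 (adjusted p = 1.34e-04). The translocon-associated Ssr4 rose by 1.38 ± 0.22, the chaperone Hspa5 by 1.35 and the stress-induced Herpud1 by 1.13 ± 0.19. The stress transcription factor Atf4 (-0.41) did not pass. Under quantile normalization 12 rose.

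Of 12 genes of glycolysis and hypoxia 5 rose and 2 fell, with a median of 0.47. Beside the counts of this paragraph, 15.0% of all genes tested rose and 10.8% fell. Hexokinase Hk1 was at 2.30, 2.72, 2.05 and 1.38 on arrays 1 to 4, a mean of 2.11 ± 0.28. The phosphofructokinase Pfkl, a committed step of glycolysis, was at 1.66, 1.98, 2.12, 1.54 and 1.87, a mean of 1.83 ± 0.20 (adjusted p = 3.11e-08). The monocarboxylate transporter Slc16a1 fell by 1.74 ± 0.22. Between 2 and 3 genes of the list rose when any 1 array was left out, and 3 as deposited. Mitochondrial genes went the other way. Of 20 genes of the citric acid cycle and fatty acid oxidation 0 rose and 9 fell, with a median of -0.37, and of 35 respiratory chain and ATP synthase genes 3 rose and 10 fell, with a median of -0.21. Acadm, which starts the oxidation of medium-chain fatty acids, was at -1.88, -1.88, -2.82, -2.35 and -1.92, a mean of -2.17 ± 0.19 (adjusted p = 3.46e-10). Cytochrome c, Cycs, fell by 1.67 ± 0.21, whereas the ATP synthase subunit Atp5a1 rose by 1.30. The respiratory list shares its muscle isoforms Cox6a2 (-1.52) and Cox8b (-1.15 ± 0.20) with the muscle list.

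Fat cell genes fell in nearly every measured case. Of 16 adipocyte genes 14 fell and 1 rose, with a median of -1.45 and array medians from -1.56 to -1.24. Beside the counts of this paragraph, 10.8% of all genes tested fell and 15.0% rose. Lpl was at -4.94, -4.48, -5.48, -4.11 and -3.79, a mean of -4.56 ± 0.41, which is 23.6-fold lower in tumor (adjusted p = 2.85e-10). The fatty acid carrier Fabp4 was at -5.34, -6.19 and -4.71 on the 3 arrays with a value, and the adipokine Adipoq at -2.42, -2.54, -1.92, -1.79 and -1.29, a mean of -1.99 ± 0.28. Every value of these genes lay below 0. Pparg, the master regulator of fat cells, fell by 0.87, and Apoe, which macrophages also make, rose by 1.41. In RNA of whole tissue, fewer cells of a type and less RNA per cell cannot be told apart. Of 9 genes of fatty acid and lipid synthesis 5 fell and 2 rose, led by the fatty acid synthase Fasn (-1.77 ± 0.22), whose 2 features stood at -2.24 and -1.31, and by Hmgcs1 of cholesterol synthesis (-1.43 ± 0.21). The elongase Elovl5 (0.86) rose. Without array 1, 2, 3 or 5 this list had 3 falls, and as deposited it had 4 falls and 0 rises. The adipocyte list median was between -1.39 and -1.19 in the 4 other FVB models. Of its 16 genes 0 differed between her2/neu and the mean of these models, beside 0.659% of all genes tested.

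Skeletal muscle genes fell in 17 of 24 cases and rose in 0, with a median of -1.26, beside 10.8% of all genes tested that fell and 15.0% that rose. The fast troponin Tnni2 was at -4.34, -3.94, -4.02, -4.27 and -4.59, a mean of -4.23 ± 0.30 (adjusted p = 8.09e-12), and the fast myosin Myh1 at -4.37, -4.07, -4.20, -3.35 and -4.78, a mean of -4.15 ± 0.35. Tnnc2 (-3.99 ± 0.46), Tnnt3 (-3.37 ± 0.49), Atp2a1 (-3.27 ± 0.37), Mylpf (-2.95 ± 0.33), Pvalb (-2.89 ± 0.36) and Apobec2 (-2.86 ± 0.37), all genes of muscle fibres, were also among the 12 largest falls. The rest of the 12 were Cav1 and Lpl, the carboxylesterase Ces1d (-3.09 ± 0.27) and Mlycd (-2.97 ± 0.23), an enzyme of malonyl-CoA breakdown. The normal side of these ratios varies for muscle. On arrays of the series against a reference RNA, 4 normal FVB glands had muscle list means from -0.23 to 2.64, and Tnni2 had an SD of 2.53 over them, where Lpl had 0.13 and Fabp4 0.56. How far the spread of normal gland enters the direct ratios is unknown, since the labels do not say whether the normal RNA was pooled. The muscle list median was between -1.49 and -1.15 in the 4 other FVB models, and the part of muscle in the normal samples in this result was not tested.

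The same normal arrays show where the changed genes stood in normal gland. They were set against the average over normal lung, prostate and seminal vesicle. By the sample titles the lung is of FVB mice, as is the gland, and the prostate and seminal vesicle of C57 mice. Of the 127 genes that fell at least 2-fold, 101 (79.5%) stood higher in normal gland than this average, and 57 (44.9%) were at least 2-fold higher. Over all genes with a value on both sets these shares were 53.5% and 4.64%. Of the 215 genes that rose at least 2-fold, 149 (69.3%) were higher in normal gland and 12 (5.58%) at least 2-fold higher. The falls thus held genes of normal gland in a larger share than all genes did, which is a description without a test.

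Stromal and vessel genes fell in part, beside 10.8% of all genes tested that fell and 15.0% that rose. Of 23 fibroblast and matrix genes 8 fell and 1 rose, with a median of -0.34, of 15 endothelial genes 5 fell and 0 rose (-0.28) and of 14 basement membrane genes 4 fell and 1 rose (-0.25). The matrix proteoglycan decorin, Dcn, was at -1.48, -2.24, -1.36, -1.81 and -1.03, a mean of -1.58 ± 0.39 (adjusted p = 0.00307), and the growth factor Igf1 fell by 1.07 ± 0.16. The collagen chains Col1a1 (-1.35) and Col1a2 (-1.05) fell, and the proteoglycan Bgn (0.83) rose. Nidogen Nid1, which links laminin and collagen IV, was at -2.59, -2.30, -2.28, -1.52 and -2.51, a mean of -2.24 ± 0.27 (adjusted p = 2.64e-07), and the laminin chain Lamb1 fell by 1.29 ± 0.25. Of endothelial genes Ly6c1 fell by 1.30 ± 0.27 and the junction cadherin Cdh5 by 0.58 ± 0.15, while the receptors Kdr (-0.20) and Flt1 (0.39) did not pass. The 2 features of Kdr parted, at -0.69 and 0.06. Without array 1, 3 endothelial genes fell, and without array 3, 2 basement membrane genes. The basement membrane rise did not pass without any 1 array. Among 12 smooth muscle and pericyte genes 3 rose and 2 fell, a count of rises that was 1 as deposited and 0 without array 3. This list shares 4 genes with the basal list and 2 with the skeletal muscle list. Of its calls, Acta2 and Tagln were also counted as basal and Des as skeletal muscle.

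Immune cell lists held both falls and rises, beside the 10.8% of all genes that fell and 15.0% that rose. Of 21 macrophage genes 3 fell and 0 rose, with a median of -0.02, and 1 fall passed without array 1 or 3. The mannose receptor Mrc1 was at -1.30, -1.40, -1.16 and -1.31 on arrays 1, 3, 4 and 5 and nearer to 0 on array 2, at a mean of -1.23 ± 0.29 (adjusted p = 0.00181), while Cd68 (-0.02) and Adgre1 (0.06), markers of macrophages at large, did not pass. Of 14 T and NK cell genes 3 fell and 1 rose, of 9 B and plasma cell genes 1 fell and of 8 MHC class II genes 1 fell. The T cell receptor subunits went both ways: Cd3g (-0.61) and Cd3e (-0.47 ± 0.12) fell, and Cd3d (0.34) was the rise. Without array 1, 2 or 4, 1 fall of the T cell list passed.

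Interferon response and MHC class I genes rose in 10 of 19 cases and fell in 1, with a median of 0.57. Of all genes tested 15.0% rose and 10.8% fell. B2m, the light chain of MHC class I, rose by 1.26 and Irf9, a transcription factor of interferon signalling, by 1.01 ± 0.21. The 5 arrays differed: the list median was 1.50 on array 1, 0.69 on array 2, -0.02 on array 3, 0.12 on array 4 and 0.43 on array 5. The antiviral gene Oas1a was at 1.87, 1.08 and 0.99 on arrays 1, 2 and 4, and Oasl2 at 1.60 on array 1 and between 0.60 and 0.89 on the others. Without array 1, 5 genes of the list rose, and without array 2, 6. The fall, Ifit2 at -0.93, did not pass as deposited or without any 1 array. The list median was between -0.02 and 0.23 in the 4 other FVB models.

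The smaller lists gave single genes, beside 15.0% of all genes tested that rose and 10.8% that fell. Sox10, a transcription factor of nerve sheath cells that mammary epithelial cells can also express, was at 1.66, 1.31, 2.67, 2.12 and 2.10, a mean of 1.97 ± 0.31 (adjusted p = 1.66e-05). It was the 1 rise among 7 peripheral nerve genes, of which the neurofilaments Nefl (-0.17) and Nefm (-0.24) and the myelin gene Mag (-0.07) did not pass. Of 6 epidermis and hair follicle genes 1 rose, Flg at 0.45 ± 0.16, which passed under neither the deposited values nor any set of 4 arrays. Of 12 immediate early genes 4 rose and 1 fell, led by Ier3 at 1.96 ± 0.21, and 1 rise passed as deposited. Of 12 p53 target genes 2 rose and 2 fell, with Phlda3 at -0.85 ± 0.22 and Cdkn1a, the CDK inhibitor p21, at 0.20, which did not pass. As deposited the p53 list had 0 rises.

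**Figure D3:**
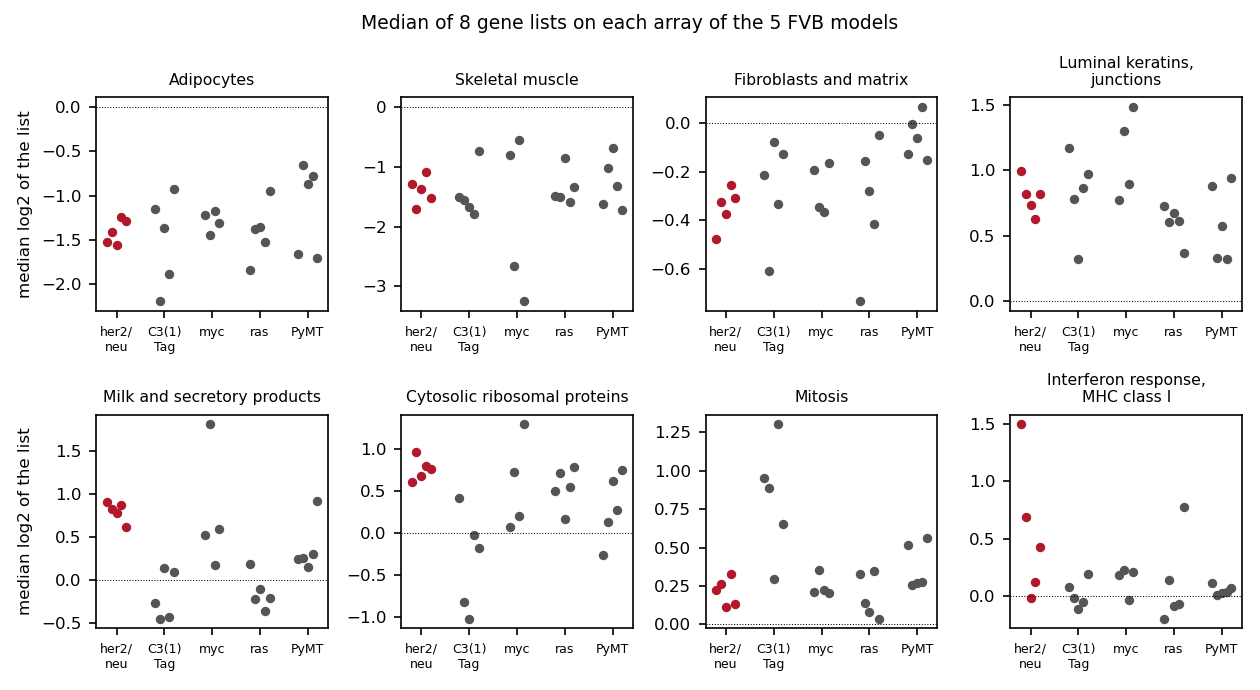
Median log2 ratio of tumor over normal gland of 8 gene lists (vertical axes, scaled per panel) on each array of the 5 FVB models. Red points are the 5 her2/neu arrays and grey points the 19 arrays of the other models. Adipocyte and muscle medians lie below 0 in all 5 models, and the interferon median of her2/neu array 1 is 1.50.

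The second comparison asked which changes differed between her2/neu tumors and the mean of the 4 other FVB models, C3(1) Tag, myc, ras and PyMT. A positive difference says that the ratio was higher in her2/neu. Here 38 of 5768 genes passed (0.659%), 31 higher (0.537%) and 7 lower (0.121%). Of these, 24 differed at least 2-fold (0.416%), 19 upward (0.329%) and 5 downward (0.0867%). At an unadjusted p under 0.05 there were 555. The count depended on scaling: 16 passed as deposited (0.277%), 4 higher (0.0693%) and 12 lower (0.208%), with the median of all genes at -0.21. Under quantile normalization 116 passed (2.01%), 84 higher (1.46%) and 32 lower (0.555%). Called under all 3 scalings were 11 genes. Leaving out 1 her2/neu array left 14, 11, 23, 21 and 10 genes for arrays 1 to 5. With neighbouring record numbers of the array database as a block, which could be fitted only without myc, 16 passed against 81 without the block.

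Csn1s1 differed most. The model means were 2.50 in her2/neu, -1.16 in myc, -2.58 in PyMT, -3.90 in ras and -4.13 in C3(1) Tag, and the difference was 5.44 (adjusted p = 3.46e-08). The 5 her2/neu arrays ran from 1.88 to 3.46 and the 19 others from -4.75 to 1.04 with a median of -3.29, so the groups did not overlap. Genes of this comparison were picked by calls on these same arrays. A lack of overlap, here and below, therefore describes them and does not test them. How many of all genes tested had no overlap was not counted. Against ras and C3(1) Tag arrays of the same group of record numbers (4 arrays), her2/neu arrays 3 and 5 were 6.50 higher. That group holds no myc or PyMT array, so differences within it are not like for like with those against the mean of 4 models. Csn2 lay between -4.85 and 3.19 on the other arrays, and its difference did not pass (adjusted p = 0.266). Plin2 was at 0.80, 0.83, 0.78, 0.84 and 0.77 in her2/neu and between -1.69 and 0.23 on the others. Its difference was 1.42 (adjusted p = 0.00148), and 1.86 within the group of record numbers. Aqp5, at 5.03 in her2/neu, had model means of 3.87 in ras, 3.68 in myc, 2.70 in PyMT and 0.26 in C3(1) Tag, a difference of 2.41 (adjusted p = 0.0243) that was not called as deposited (adjusted p = 0.0544) or without array 1, 2, 3 or 5. These were the 3 milk genes of 16 that differed, beside 0.659% of all genes tested.

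Of 11 luminal regulators 2 differed, beside 0.659% of all genes tested. Stat5a had model means of 0.86 in her2/neu, 0.14 in PyMT, 0.10 in myc, -0.02 in C3(1) Tag and -0.12 in ras, a difference of 0.84 (adjusted p = 0.0109). Its her2/neu arrays began at 0.61 and the 19 others ended at 0.39. Gata3 stood at 2.02 in her2/neu, 1.47 in myc, 1.45 in PyMT, 0.62 in ras and 0.23 in C3(1) Tag, a difference of 1.08 (adjusted p = 0.0427). Its lowest her2/neu array was at 1.87 and the highest other array at 1.86. Neither gene overlapped, but both calls were lost as deposited (differences of 0.63 and 0.85), that of Stat5a also without array 2 or 3 and that of Gata3 without any 1 array.

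Igfals, whose protein binds insulin-like growth factor complexes in blood, was at 0.94, 1.42, 1.26, 1.13 and 1.58 in her2/neu and between -0.60 and 0.37 on the 19 others. Its difference was 1.39 (adjusted p = 4.57e-10), and 1.74 within the group of record numbers. Csn1s1 and Igfals were called under every alternative that was run. Col9a1 was at 4.61 in her2/neu and 4.42 in myc, but 2.00 in PyMT, 1.86 in ras and -0.04 in C3(1) Tag, so its difference of 2.54 (adjusted p = 0.00304) fell to 0.18 against myc alone and was not called there. Carboxypeptidase E, Cpe, which trims peptide hormones, went the other way. It was at -1.06, -0.75, -0.64, -0.28 and -0.97 in her2/neu, with model means of 2.47 in myc, 2.29 in ras, 1.99 in C3(1) Tag and 0.48 in PyMT. The difference was -2.55 (adjusted p = 1.57e-04) and -2.97 within the group of record numbers, and her2/neu did not overlap the 18 other arrays with a value, which began at -0.15. Irf2bp2, a transcriptional cofactor, was at -1.37 in her2/neu on the 4 arrays with a value and between -0.50 and 0.54 in the model means, a difference of -1.23 (adjusted p = 0.00469).

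**Figure D4:**
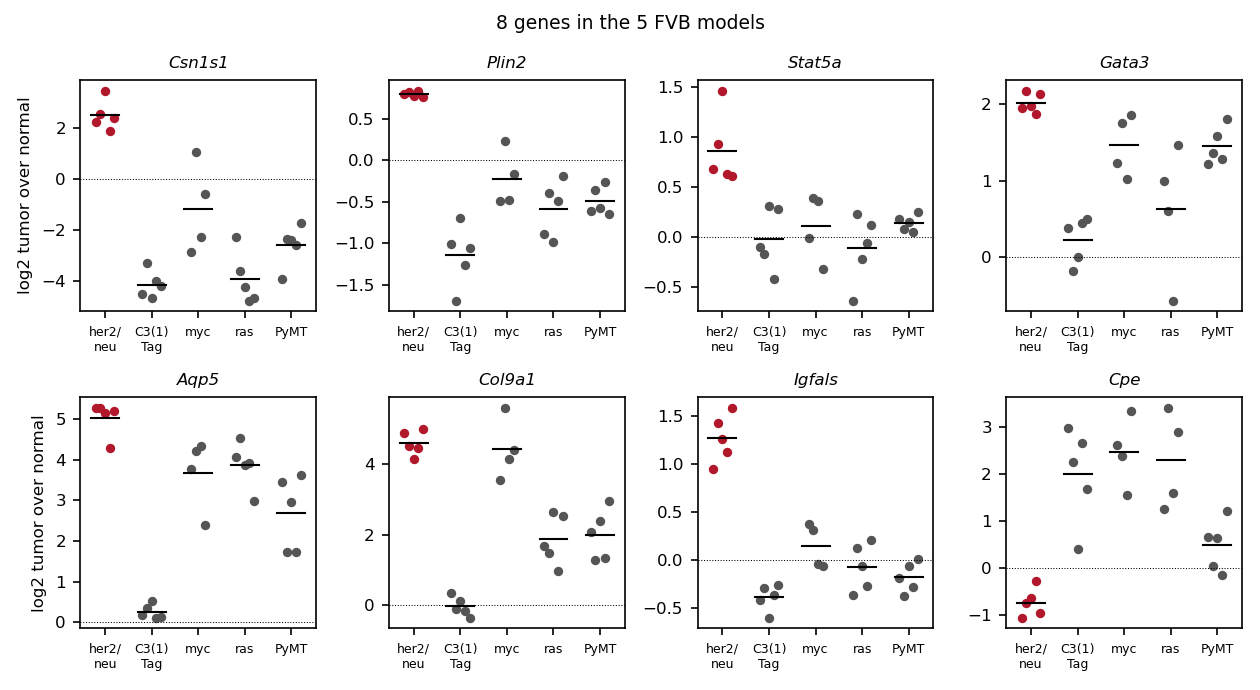
Log2 ratio of tumor over normal gland (vertical axes, scaled per panel) of 8 genes that differed between her2/neu and the mean of the other FVB models. Points are arrays, red for her2/neu and grey for the other models, and bars are model means. Csn1s1 lies above 0 in her2/neu and at -1.16 or below in the means of the others, while Cpe lies below 0 only in her2/neu by model mean.

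The remaining genes named by the rule for this comparison were less stable. Ramp1, a receptor activity-modifying protein, was 1.78 higher, Garem1 1.39, Primpol, a primase-polymerase, 1.35 and the interferon-induced GTPase Iigp1 1.22, and the genes 2310057J18Rik and Brip1os were at -2.01 and -0.67. Within the group of record numbers, against ras and C3(1) Tag arrays only, the differences in this order were 1.02, 0.90, 1.43, 0.95, -2.66 and -1.06. Ramp1 ran from 0.58 to 2.76 over the her2/neu arrays and from -0.92 to 0.75 on the others. As deposited Ramp1, Garem1, Primpol and Iigp1 were not called, and each of the 6 lost its call without at least 1 her2/neu array, Iigp1 without array 1 or 2. Among genes of the first comparison, Tcn2 (1.57), Kcnn4 (1.41) and Ccng1 (1.21) also differed under centring but not as deposited. In limma 0 mitosis, ribosomal protein, adipocyte or muscle genes differed, against 0.659% of all genes tested. At an unadjusted limma p under 0.05, 2 of 31 mitosis and 14 of 28 ribosomal protein genes did, beside 555 of all 5768 tested. Of 16 adipocyte and 24 muscle genes 0 did. The median difference was 0.51 for the ribosomal protein list and -0.004 for all genes tested. Under quantile normalization Rps14 (1.04) and Rps19-ps3 (0.77) passed as higher.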

How the data were processed

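The deposited table holds 1 log2 ratio per feature and array, made by the authors; background correction and normalization steps are not given in the sources used here. Per the labels, tumor RNA carried Cy5 and normal RNA Cy3 on every direct array, so a dye bias stays in the test against 0 and cancels between models. Base and direction are not labelled. The series text's rule gives 2638 features on values read as log2, the number stated there, and C3(1) Tag direct ratios correlate with its reference arrays (Pearson 0.499, Spearman 0.380 over 5755 genes). Of 9596 features 7486 have 1 symbol; features of a gene were averaged (5768 genes). Each array was centred on its median. limma 3.58.1 in R 4.3.3 fitted 8 model means over 38 arrays to genes with at least 3 values per model, after a test on simulated data. Benjamini-Hochberg adjustment ran over all genes. Members and gene lists were chosen with earlier results of these data known. Named were the 12 largest rises and falls with 4 or more values on 1 side of 0, up to 3 genes a list by p, up to 8 contrast genes per direction outside the range of the other model means, 16 fixed genes, and others chosen after seeing values. Alternatives: no centring, quantile, complete genes, single arrays left out, other model sets and blocks.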

Additional observations from a re-analysis of the deposited data

Results flagged for a closer look

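On 12 of 140 gene or list groups of her2/neu arrays, 1 array stood apart from the others by its gap to the nearest one; chance gives about 5% of such groups. The genes and values were Aqp5 (array 4, 4.28), Pea15a (array 2, 0.92), Myc (array 2, 0.36), Fen1 (array 3, 1.08), Tagln (array 1, -1.20), Rps14 (array 4, 1.13), Slc16a1 (array 5, -1.17), Herpud1 (array 2, 0.80), Psrc1 (array 2, -0.77), Ccng1 (array 2, -0.71) and Brip1os (array 3, -0.10). The MHC class II list median stood apart on array 3, at 0.15. Array 2 holds 5 of these values. Without array 1 Tagln was at -0.53 and did not pass, and without array 3 Fen1 was at 0.35. Fen1 did not pass without array 1, 2, 3 or 4.

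For 18 named genes the change in her2/neu differed from the mean of the 4 other FVB models in the limma contrast. The higher differences were Csn1s1 5.44, Col9a1 2.54, Aqp5 2.41, Ramp1 1.78, Tcn2 1.57, Plin2 1.42, Kcnn4 1.41, Garem1 1.39, Igfals 1.39, Primpol 1.35, Iigp1 1.22, Ccng1 1.21, Gata3 1.08 and Stat5a 0.84. The lower ones were Cpe -2.55, 2310057J18Rik -2.01, Irf2bp2 -1.23 and Brip1os -0.67. The adjusted p of 2310057J18Rik was 0.05 to 2 decimals, and its high model means were those of ras (3.67) and PyMT (2.50). Primpol stood at 0.08 in her2/neu and between -1.76 and -0.57 in the other model means, so it differed between models while its own change did not pass (adjusted p = 0.842).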

How the results depend on the processing

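The count of genes that differed from normal gland, 1490, was 2616 with the 5 her2/neu arrays fitted alone and between 1007 and 1221 without 1 array. The count of 2-fold changes, 342, was 524 under quantile normalization and between 316 and 352 without 1 array. The contrast count, 38, was 16 as deposited, 116 under quantile normalization, 168 against all 7 other models, 512 against C3(1) Tag, 5 against myc, 13 against ras and 17 against PyMT alone. Without myc it was 81, and 16 with database record groups as a block; the planned block with all 4 models could not be fitted, since no myc array shares such a group with another FVB model. These 2 alternatives were chosen after seeing the data. Without 1 her2/neu array it was between 10 and 23. Whether replicate numbers pair the samples is unknown. Of 19 same-numbered pairs 5 had a correlation of deviations over 0.1 (range -0.18 to 0.25). Differently numbered pairs were not set beside them, so this cannot decide it. The replicate block gave 34 genes. No named gene that passed changed direction. Of 112 named genes 10 lost their call against normal gland as deposited and 8 to 10 without 1 array; 2 gained one under quantile normalization. Precision is limited by 5 arrays, by 3 or 4 values in some genes and by unknown spot brightness.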

Other observations

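Some genes differed between the 5 her2/neu tumors more than others, and they were chosen after their values were seen. The median SD over the 5 arrays was 0.21 for the 5144 genes with 5 values. Tpm2, a tropomyosin, was at -1.92, -2.06, -1.33, 1.14 and -1.52, so array 4 was above 0 where the others were below. Pcx, the pyruvate carboxylase, had the same array apart, at 0.88 against -1.48 to -0.77. Array 1 stood high for Crtc3, a CREB coactivator, at 2.93 against -0.21 to 0.48, and for Upp1, a uridine phosphorylase, at 1.65 against -0.82 to -0.27. Array 1 was also highest for the interferon-induced Ifit3, at 2.40, where array 3 was at -0.02. Slc7a5, an amino acid transporter, was at 2.36 on array 3 and between -0.04 and 1.19 on the others.

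Among 304 genes with a 2-fold change and 5 values, array 4 was nearest to 0 in 100 and array 1 in 28. The median size of these changes was 1.25 on array 4, 1.28 on array 5 and between 1.42 and 1.49 on the other arrays.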
